A study of Homo sapiens with 9 samples.

Results

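The ARID5B locus was described through its DNA contacts in growing IMR90 fibroblasts and in IMR90 cells in RAS-induced senescence (RIS). ARID5B (ENSG00000150347) lies on the plus strand at chr10:63661443-63856703 (hg19) and is 195.3 kb long. The members were the bins of this locus that carry values in all libraries: 51 of the 5628 captured bins of 10 kb, from chr10:63200001 to chr10:63710000, and 63 of the 69621 Hi-C bins of 40 kb, from chr10:62480001 to chr10:65000000. The captured region ends inside the gene. It holds 5 of the 20 bins of 10 kb that ARID5B touches, or 24.9% of the gene, so the capture Hi-C (cHi-C) values describe the promoter, the first 48.6 kb of the gene and the region before it. The remaining gene body and the region after it were seen by Hi-C alone, at 40 kb. The locus was chosen with results of the same contrast known, so its differences between RIS and growing cells are given as a description. Fits over all pairs of bins are reported for the members as counts, from which nothing is read.

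All cells were IMR90, a human foetal lung fibroblast line, stably carrying ER:HRAS(G12V), an oncogenic HRAS fused to the oestrogen receptor so that 4-hydroxytamoxifen (4OHT) switches it on. Growing cells received no 4OHT and RIS cells received 100 nM 4OHT for 6 days. Hi-C was available for 3 growing and 2 RIS libraries, and cHi-C for 2 growing and 2 RIS libraries. The label of growing Hi-C replicate 3 adds an MSCV vector, and no other label names one. The cHi-C libraries were matched to the Hi-C libraries, so the 2 assays are not independent evidence of a difference. The study calls its replicates biological without saying whether they came from separate cultures, and the spread between them may be partly technical. Each library was made from many cells, so a weaker contact in every cell and a contact lost in some of the cells cannot be told apart. Gene expression was not analysed here.

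ARID5B encodes a DNA-binding protein of the AT-rich interaction domain family, which works together with the histone demethylase PHF2 and is known for its part in the differentiation of fat and cartilage cells. Hi-C counts pairs of DNA fragments that were ligated because they lay close together in the nucleus, and cHi-C enriches such pairs for chosen regions with RNA baits. Contacts become rarer with distance along the chromosome, and a promoter may also meet distant enhancers, stretches of DNA that raise transcription. Such loops often end at sites of the protein CTCF, and regions that mix little with their neighbours, called topologically associating domains, are separated by borders at which few contacts cross. Every contact value below is therefore an observed over expected ratio (O/E). The observed value is the balanced contact of a pair of bins and the expected value is the mean at the same distance in the same library, over all captured regions for cHi-C and over the autosomes for Hi-C. Levels are printed as O/E or as its log2, and differences are log2 of RIS over growing.

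The sequences on which these contacts rest are shown first, from GRCh37. Fragments were cut with HindIII, and the annotated start of ARID5B lies on a fragment of 3094 bases, 2295 bases after one site and 799 bases before the next. The 30 bases around each of these sites are at chr10:63659136-63659165 and chr10:63662230-63662259, on the plus strand, with the recognition site in capitals. The 250 bases before the start, chr10:63661193-63661442 on the plus strand, hold 8 CpG dinucleotides and 41.6% G or C. The letters of a CTCF-type core (CC, 3 bases of any kind, then AGGGGGC), searched on both strands, were found in 3 of the 51 captured bins of the locus (5.88%, against 7.37% of all 5628 captured bins). These matches are shown with 4 bases to each side and the core in capitals. They lie at chr10:63307240-63307259 on the minus strand, at chr10:63550924-63550943 on the plus strand and, inside the promoter bin, at chr10:63664750-63664769 on the plus strand. They are matches of letters and were not tested as binding sites.
HindIII site before the start: agagactaacagAAGCTTtaggcatatcta
HindIII site after the start: ttattacagggcAAGCTTgaaaatactgta
Upstream of the start: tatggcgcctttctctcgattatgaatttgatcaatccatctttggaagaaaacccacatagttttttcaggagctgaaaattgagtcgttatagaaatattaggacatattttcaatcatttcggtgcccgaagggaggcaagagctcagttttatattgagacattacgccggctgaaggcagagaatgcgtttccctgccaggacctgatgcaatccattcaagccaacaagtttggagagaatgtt
CTCF-type core, 360 kb upstream: atatCCTGAAGGGGGCacac
CTCF-type core, 110 kb upstream: acctCCCTAAGGGGGCatga
CTCF-type core, promoter bin: ggcaCCTAGAGGGGGCaaca

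In cHi-C the ARID5B promoter bin, chr10:63660001-63670000, contacted the region before it less in RIS than in growing cells. Over the 45 bins from 20 to 460 kb upstream, the log2 of the mean O/E was 0.52 and 0.54 in growing replicates 1 and 2, against 0.29 and 0.21 in RIS replicates 1 and 2. Both RIS libraries lay below both growing libraries, and the difference was -0.28 (growing 0.53 ± 0.01, RIS 0.25 ± 0.06, mean ± SD, n = 2 each). The promoter thus met its upstream region more often than the average captured pair at the same distance in all 4 libraries, by a smaller margin in RIS. Set against an expectation from the captured region of ARID5B alone, the difference was -0.18. The level was then 0.11 in both growing libraries and lay between -0.13 and -0.02 in the RIS libraries, below that expectation.

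The shortfall ran along nearly the whole upstream region. A bin was taken as weakly captured where its recovered contacts were more than 8-fold below those of the median captured bin in at least 3 of the 4 libraries, since balancing then multiplies a few contacts. This held for 297 of the 5628 captured bins, 2 of them in the locus, starting at 63230001 and 63700001. The first of these is among the upstream bins averaged above. Without it the difference was -0.29, with growing libraries at 0.48 to 0.50 and RIS libraries at 0.19 to 0.21. Of the 43 bins at 30 kb or more upstream that were not weakly captured, 42 had a lower mean O/E in RIS. In 36 of them both RIS libraries lay below both growing libraries. All RIS libraries lay below all growing libraries in 26.2% of all 329357 captured pairs. The differences of the 43 bins ran from -0.59 to 0.16, with a median of -0.30. The one bin with a higher mean in RIS, 370 kb upstream, had overlapping groups. The picture changed next to the promoter. The bins 10 and 20 kb upstream were higher in RIS by 0.11 and 0.12, and the 3 bins just downstream, inside the gene, differed by -0.12 to -0.04 with groups apart.

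**Figure D1:**
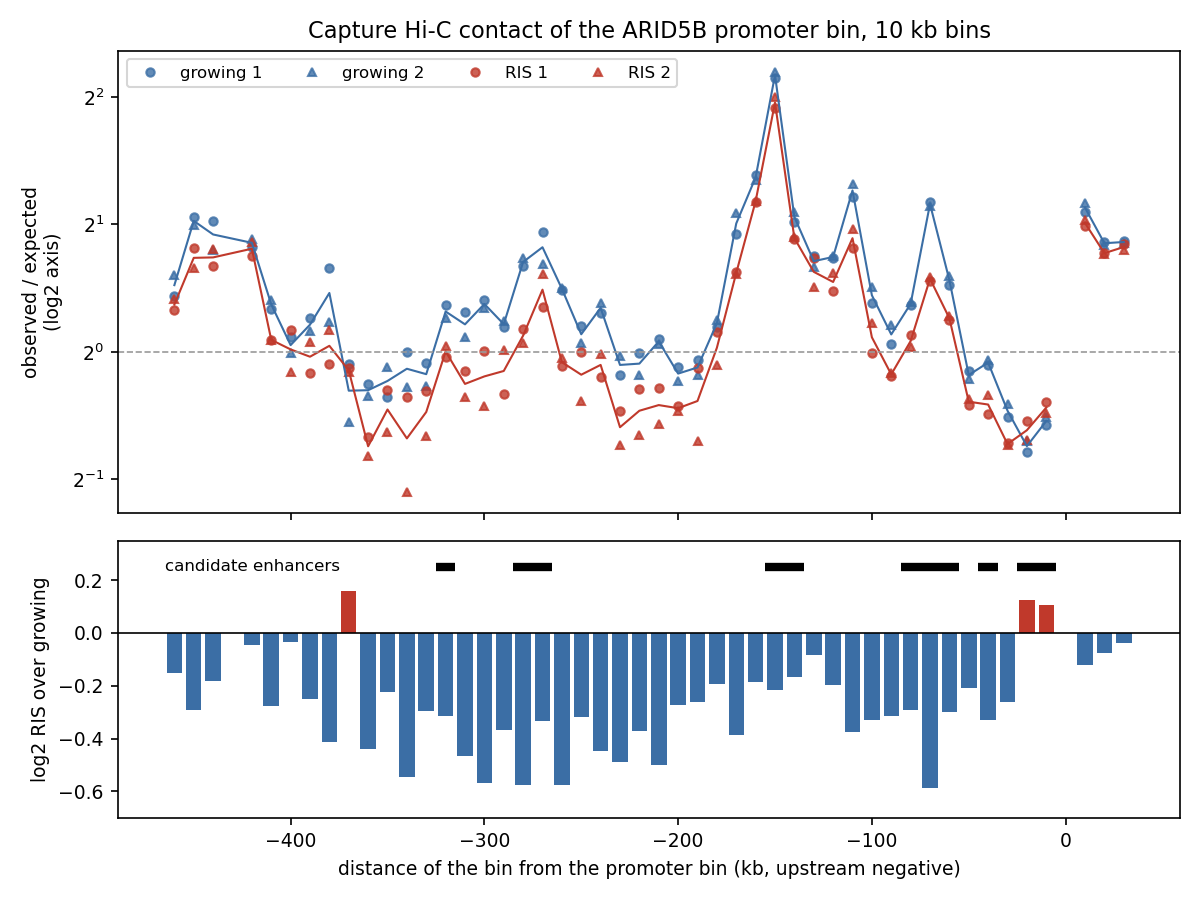
cHi-C contact of the ARID5B promoter bin with each 10 kb bin of the locus that was not weakly captured. The upper panel gives the observed over expected contact per library on a log2 axis and the lower panel the log2 of RIS over growing, both against distance in kb (upstream negative). Among these bins the profile peaks 150 kb upstream in all 4 libraries, and 42 of the 43 bins at 30 kb or more upstream that were not weakly captured lie below 0 in the lower panel.

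The highest points of the profile were lower in RIS. With weakly captured bins left out, the bin 150 kb upstream was at the top, inside CABCOCO1, at an O/E of 4.42 and 4.59 in growing against 3.76 and 3.99 in RIS libraries. Its difference was -0.22, with the groups apart. The bin 110 kb upstream, which holds one of the CTCF-type cores shown above, had an O/E of 2.32 and 2.50 in growing against 1.76 and 1.96 in RIS cells. The bin with the core 360 kb upstream was no peak, at 0.84 and 0.79 in growing against 0.63 and 0.57 in RIS cells.

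By difference in O/E, the lowest bin of the profile lay 70 kb upstream, at chr10:63590001-63600000. Its O/E was 2.26 and 2.21 in growing against 1.47 and 1.50 in RIS cells, a difference of -0.59, and it stood above its neighbours in all 4 libraries. These values rest on 1543 and 1287 recovered contacts in growing and 623 and 388 in RIS libraries. The next lowest bins lay together at 300, 280 and 260 kb upstream, between TMEM26 and CABCOCO1, with differences of -0.57, -0.58 and -0.58 and growing and RIS libraries apart in each. In the fit described below, which normalizes differently, the bin 340 kb upstream came lowest at -0.62, ahead of the bin 70 kb upstream at -0.61. The 10 lowest bins of that fit ran up to -0.46, all lay between 70 and 360 kb upstream and all had groups apart. The 10 highest ran from -0.17 to 0.16. They held the 4 captured bins inside the gene and the 2 bins next to the promoter, and 5 of the 10 had overlapping groups.

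The study paired 6 candidate enhancers with the ARID5B promoter. The pairs were chosen on these same libraries, so their direction is no independent evidence. Candidate enhancers 1 to 5, numbered here from the farthest to the nearest, were lower in RIS, and the groups did not overlap in any of them. Candidate enhancer 1, 320 kb upstream, differed by -0.31 and candidate enhancer 2, whose 2 bins end at chr10:63400000, by -0.44. Candidate enhancer 3, at the peak inside CABCOCO1, had a log2 O/E of 1.69 and 1.75 in growing against 1.49 and 1.55 in RIS cells, a difference of -0.20. Candidate enhancer 4, whose 3 bins include the bin 70 kb upstream, had 0.73 and 0.75 in growing against 0.32 and 0.32 in RIS cells, a difference of -0.42. Candidate enhancer 5, 40 kb upstream, differed by -0.33. Candidate enhancer 6, the 2 bins next to the promoter bin, went the other way, with -0.67 and -0.60 in growing against -0.47 and -0.58 in RIS cells. With 2 libraries a group, the gap between RIS replicate 2 and growing replicate 2 there is 0.02, within the SD of either group.

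Gene starts in the same captured region were lower or overlapped. The start of TMEM26, which encodes a transmembrane protein, lies 450 kb upstream and had a log2 O/E with the ARID5B promoter of 1.06 and 1.00 in growing against 0.82 and 0.66 in RIS cells. The start of CABCOCO1, which encodes a calcium-binding coiled-coil protein associated with cilia, lies 240 kb upstream and had 0.30 and 0.39 in growing against -0.20 and -0.01 in RIS cells. Both had groups apart. The starts of RHOBTB1, 900 kb upstream, and of the mitotic kinase gene CDK1, 1130 kb upstream, had differences of -0.14 and -0.22 with overlapping libraries. Between 20 and 60 recovered contacts a library lay behind the CDK1 value.

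Contact was also lower between bins that do not include the promoter, but one patch was higher. The 46 captured bins before the promoter bin contacted each other with a log2 O/E of 0.30 and 0.32 in growing against 0.08 and 0.14 in RIS cells, a difference of -0.20, which shrank to -0.05 with the expectation from the captured region of ARID5B alone. Bins inside CABCOCO1 contacted each other less (-0.20, groups apart), as did the bins between TMEM26 and CABCOCO1 (-0.20, groups apart). The 12 bins between the end of CABCOCO1 and the bin 20 kb upstream of the promoter did not share this. Their contacts with each other had a log2 O/E of 0.40 and 0.41 in growing against 0.40 and 0.39 in RIS cells, and the groups overlapped.

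Inside those 12 bins, contacts across the bin 70 kb upstream were higher in RIS, while contacts of that bin itself were lower. This patch was singled out after its values were seen. The 6 bins on its far side, chr10:63530001-63590000, met the 5 bins on its near side, chr10:63600001-63650000, with a log2 O/E of 0.14 and 0.13 in growing against 0.37 and 0.33 in RIS cells, a difference of 0.21. The far bins with each other differed by -0.14 and the near bins with each other by -0.26. The bin 70 kb upstream itself differed by -0.08 in its contact with the far bins and by -0.11 with the near bins, with groups apart in both. Counting 3 bins to each side, the log2 O/E across the edge at chr10:63590000 was -0.15 and -0.16 in growing against 0.07 and 0.04 in RIS cells. Across the edge at chr10:63600000 it was -0.17 and -0.11 in growing against 0.06 and 0.02 in RIS cells. Counting 5 bins to each side, the first of these edges had 0.12 and 0.12 in growing against 0.28 and 0.24 in RIS cells. Contact across both edges was thus higher in RIS with either count, and in growing cells it was below the expected level only with the shorter one. At the promoter, across the edge at chr10:63660000, it was -0.44 and -0.40 in growing against -0.42 and -0.47 in RIS cells with 3 bins to each side, and the groups overlapped. With 5 bins it was -0.18 and -0.12 in growing against -0.19 and -0.32 in RIS cells, with groups apart. With 3 bins this edge lay below both neighbouring edges in all 4 libraries. The next edges upstream, at chr10:63650000 and chr10:63640000, differed by -0.33 and -0.35 with 3 bins, with groups apart. The next edge downstream, at chr10:63670000, differed by 0.01 with overlapping groups.

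**Figure D2:**
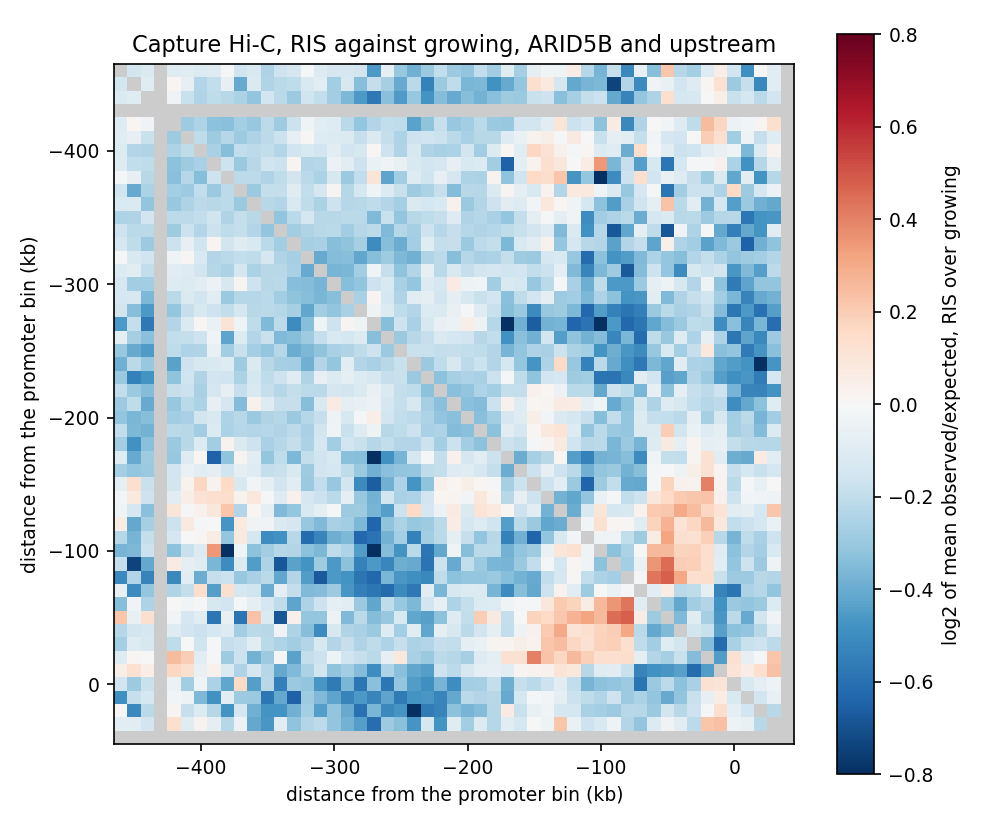
Log2 of RIS over growing mean observed over expected cHi-C contact for each pair of 10 kb bins of the ARID5B locus, both axes in kb from the promoter bin (upstream negative), with weakly captured bins and the diagonal in grey. Most of the map is below 0, and the block above 0 lies between bins on opposite sides of the bin 70 kb upstream, whose mean difference was 0.21.

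Within the gene, the 5 captured bins at its start contacted each other with a log2 O/E of 1.17 and 1.16 in growing against 1.00 and 1.04 in RIS cells, a difference of -0.14 with groups apart. Without the weakly captured bin the difference was -0.11, and with the expectation from the captured region of ARID5B alone it turned to 0.07. The direction of this value therefore depends on the reference. The same bins with the region between TMEM26 and CABCOCO1 differed by -0.33, and with CABCOCO1 by -0.24. For comparison, the 99 captured bins of the same region that lie before chr10:63200001 differed by -0.07 among themselves and by -0.09 in their contact with the ARID5B promoter, with groups apart in both.

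Of the 1274 pairs of bins tested within the locus, 1109 (87.0%) had a fitted log2 difference below 0, against 50.1% of all 329357 captured pairs. Their median was -0.21, against -0.001 for all pairs. With limma on the balanced values, 1 pair of the locus and none of the 50 pairs of the promoter bin had an adjusted p under 0.05, where 0.0334% of all pairs did. The 1 pair joins the bin at 63610001 to a weakly captured bin, as do 91 of the 110 pairs called over all regions. At an unadjusted p under 0.05, 15 of the 50 promoter pairs were lower and 0 higher, beside 7.2% of all pairs lower and 7.41% higher. With voom on the recovered contacts, 372 pairs of the locus were called, 343 lower and 29 higher, and 14 of the promoter bin. Of all pairs voom called 12.6%, with 5.81% lower and 6.79% higher. Of the 28 higher pairs without a weakly captured bin, 23 joined bins on opposite sides of the bin 70 kb upstream. This was counted over a stretch that reaches somewhat farther upstream than the far bins of the patch. The patch was singled out after these values were seen, so the number is no separate evidence. The share of all tested pairs that span this bin was not computed. Limma with a trend of the variance called 0 pairs in the locus and 0 of the promoter bin, and left 510 and 25 at an unadjusted p under 0.05, beside 16.7% of all pairs. In simulated contacts with known changes, limma on the balanced values called none of the changed pairs and voom called a part of them, so a count of 0 from limma does not show that contacts did not differ. Because the gene was chosen on this contrast, nothing is read from these counts.

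The locus also had fewer contacts before balancing. Relative to the median captured bin, 47 of its 49 bins that were not weakly captured had fewer recovered contacts in both RIS than in both growing libraries, with a median difference of -0.20 in log2, where 38.8% of all captured bins had groups apart in this direction. The median difference over all captured bins was 0.004. Balancing removes such a difference from the sum of each bin, and its part in the lower O/E was not tested.

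Genes elsewhere with a like change were looked for by the contact of their promoter bin at 20 to 50, 50 to 100, 100 to 200 and 200 to 300 kb upstream, over the 4 cHi-C libraries. ARID5B differed by -0.17, -0.37, -0.24 and -0.43 in these bands, a mean of -0.30. It ranked 8 from the lowest of 317 protein-coding genes with values in all 4 bands, of which 143 had a mean below 0 and whose median was 0.02. The locus was chosen with results of this contrast known, so the rank is no evidence that it stands out. Genes that share a captured region are also not independent of each other. Nearest by Euclidean distance were the complement factor H-related gene CFHR3 (0.14), the G protein-coupled receptor gene MRGPRX3 (0.17) and TMEM26 (0.20), which shares the captured region of ARID5B.

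Hi-C extended the view over the whole gene and beyond it. The 40 kb promoter bin, chr10:63640001-63680000, had lower contact upstream in RIS and higher contact downstream. With the 480 kb before the gene, the log2 O/E was 0.21, 0.22 and 0.22 in growing replicates 1 to 3, against 0.12 and 0.13 in RIS replicates 1 and 2, a difference of -0.09. With the 480 kb after the gene, it was 0.27, 0.17 and 0.18 in growing against 0.53 and 0.39 in RIS cells, a difference of 0.26. Both had groups apart, as had 31.0% of single pairs of Hi-C bins on the autosomes. The downstream value rests on 593, 600 and 572 recovered contacts in growing and 463 and 534 in RIS libraries. By the study's mapping statistics, growing replicate 3 and RIS replicate 2 had many duplicate reads. Between these 2 libraries the downstream difference was 0.21, and among the other 3 libraries it was 0.31. The first value sets a single library against a single library. Growing replicate 3 is also the one with the MSCV vector, so duplicates, vector and replicate cannot be told apart. The same holds for every later value split by duplicates.

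By bin, 11 of the 12 downstream bins were higher in RIS, 7 of them with groups apart, and all 5 other gene bins were higher, 2 of them with groups apart. Upstream 7 of 12 bins were lower, 4 of them with groups apart, and 1 of the higher bins was apart. Among 1839728 pairs of Hi-C bins on the autosomes, all RIS libraries lay above all growing libraries in 275553 and below them in 294183. The highest difference in the downstream flank, 0.76, was at 440 kb downstream, with an O/E of 0.81, 0.52 and 0.63 in growing against 1.02 and 1.19 in RIS cells. The bin next to the promoter upstream, which holds 4 of the 5 near bins of the patch described above, had an O/E of 1.42, 1.50 and 1.46 in growing against 1.10 and 1.23 in RIS cells, a difference of -0.32. The peak inside CABCOCO1 did not follow the cHi-C direction at this resolution. The Hi-C bin 160 kb upstream, which contains the top bin of the cHi-C profile, had a difference of 0.10 with overlapping groups. The next Hi-C bin, 120 kb upstream, holds only the second bin of candidate enhancer 3 and differed by 0.19 with groups apart. The 2 assays are set against different expectations, and their bins differ in size.

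**Figure D3:**
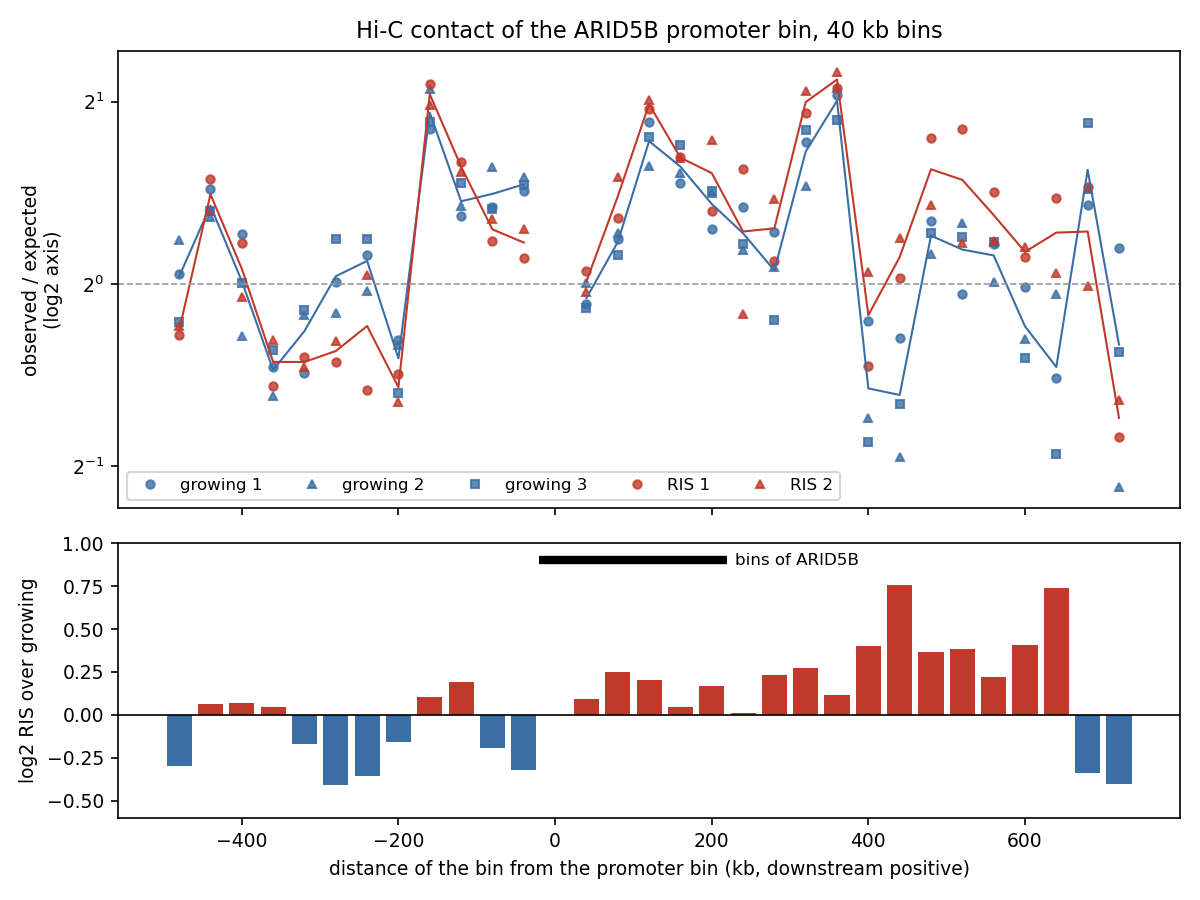
Hi-C contact of the 40 kb ARID5B promoter bin by distance in kb (downstream positive), as observed over expected per library on a log2 axis (upper panel) and as log2 of RIS over growing (lower panel). In the lower panel 11 of the 12 bins of the 480 kb after the gene lie above 0.

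Hi-C was also higher in RIS between bins on either side of the bin 70 kb upstream. The third and the first bin before the promoter bin, which lie on its opposite sides, had a log2 O/E between -0.01 and 0.07 in growing and of 0.56 and 0.34 in RIS cells. The second and the first bin before the promoter bin had -0.22, -0.02 and -0.21 in growing against 0.12 and 0.12 in RIS cells. This second bin contains the bin 70 kb upstream, so the pair also holds the contact of that bin itself with the near side. The groups were apart in both pairs, with differences of 0.43 and 0.27. The Hi-C and cHi-C libraries are matched, so this is the same difference seen again.

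ARID5B has an alternative promoter in the bin chr10:63800001-63840000. Its contact with the upstream flank was near the expected level, at 0.01, -0.05 and -0.07 in growing against -0.09 and -0.02 in RIS cells, with the groups overlapping. Its contact with the downstream flank was 0.30, 0.25 and 0.35 in growing against 0.47 and 0.40 in RIS cells, a difference of 0.14 with groups apart, which was 0.05 between the libraries with many duplicates and 0.20 among the others.

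Over the gene body as a whole, the 6 bins that ARID5B touches contacted each other slightly more in RIS. The log2 O/E was 0.23, 0.21 and 0.18 in growing against 0.28 and 0.30 in RIS cells, a difference of 0.09 with groups apart. Of 1510 genes measured the same way, 67.5% had a difference at or below this one. Contact of the gene body with its upstream flank was 0.03, -0.002 and -0.02 in growing against -0.07 and -0.09 in RIS cells, a difference of -0.09 that turned to 0.01 with a flank of 960 kb. At or below this value lay 24.6% of 1477 genes. Contact with the downstream flank was 0.09, 0.07 and 0.06 in growing against 0.23 and 0.17 in RIS cells, a difference of 0.12, and 0.20 with a flank of 960 kb. For the downstream flank, a share over other genes was not computed.

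**Figure D4:**
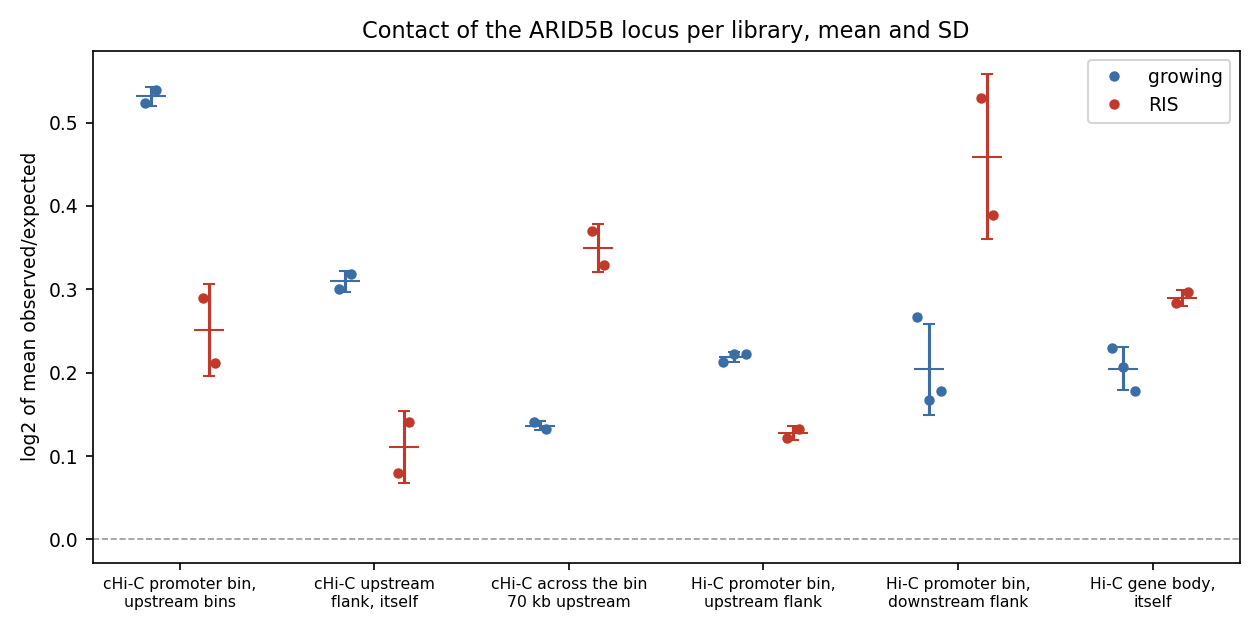
The plot gives 6 measures of the ARID5B locus as log2 of the mean observed over expected contact, with a point per library, the mean as a horizontal line and the SD as bars (cHi-C n = 2 and 2, Hi-C n = 3 growing and 2 RIS). Growing and RIS points do not overlap in any of them. RIS lies lower for both upstream contacts of the promoter and for the upstream flank, and higher across the bin 70 kb upstream, for the downstream contact and for the gene body.

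Contact of the gene body with 3 of 6 neighbouring genes differed in the direction of the flank on their side with groups apart. These 3 genes lie inside those flanks, so their direction is no separate observation. A share over like pairs of genes elsewhere was not computed, so nothing is read from this count. Contact of the ARID5B body with RTKN2, which lies downstream, was 0.57, 0.56 and 0.43 in growing against 0.65 and 0.62 in RIS cells, a difference of 0.11 that was 0.18 between the libraries with many duplicates and 0.09 among the others. With the zinc finger gene ZNF365, farther downstream, it differed by 0.16 with groups apart, but by 0.03 between the libraries with many duplicates and 0.25 among the others. With CABCOCO1 upstream it differed by -0.08 with groups apart, by -0.04 between the libraries with many duplicates and -0.11 among the others. TMEM26 overlapped between groups, at -0.05. RHOBTB1, far upstream, went the other way, with 0.70, 0.76 and 0.80 in growing against 0.82 and 0.89 in RIS cells. The histone demethylase-family gene JMJD1C, at the end of the window, had overlapping groups. Seen from the promoter bin alone, the start of RHOBTB1 differed by -0.39, from 29, 35 and 29 contacts in growing and 12 and 21 in RIS libraries. The starts of RTKN2 and ZNF365 differed by 0.12 and 0.36 with groups apart. The start of CABCOCO1 differed by -0.36 and that of TMEM26 by 0.06, both with overlapping groups, where cHi-C gave TMEM26 as lower with groups apart. The starts of CDK1 and of EGR2 and ADO, which share a bin, overlapped between groups. The start of NRBF2, a regulator of autophagy, had an O/E of 1.57, 1.93 and 2.17 in growing against 0.78 and 0.89 in RIS cells. That difference of -1.18 rests on 15 to 24 contacts in growing and 5 and 7 in RIS libraries. In Hi-C no gene start joined to the promoter was called by limma or voom. By the fit, the 10 lowest bins of the Hi-C promoter profile ran from -1.07, at NRBF2, to -0.30, and the 10 highest from 0.43 to 1.12, with groups apart in 6 of the lowest and 5 of the highest. Most of these bins lie over 400 kb away, where a library holds few contacts with the promoter.

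Of the 1476 Hi-C pairs tested in the window, 621 (42.1%) had a fitted log2 difference below 0, against 50.3% of all 1959041 pairs, and their median was 0.07. Limma called 0 of them and 0 of the 55 pairs of the promoter bin, where it called 0.0388% of all pairs. At an unadjusted p under 0.05 it left 117 and 5, beside 10.2% of all pairs. Voom called 22, of which 16 were higher, and 2 of the promoter bin, beside 1.28% of all pairs. The 2 bins were the one next to the promoter upstream, at 63600001, which was lower, and the one at 63720001 inside the gene, which was higher. The higher one was called in no other voom fit, with the replicate block or with a library left out.

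In Hi-C, with a 520 kb window, the edges nearest the ends of ARID5B did not pass as borders, which were taken as local minima of the insulation score with a prominence of at least 0.1. The insulation score is the log2 of the contact that crosses a bin edge within 520 kb over its mean along the chromosome, so a low score means that few contacts cross. At the edge nearest the 5′ end, chr10:63680000, it was 0.16, 0.14 and 0.06 in growing against 0.16 and 0.11 in RIS cells, and the groups overlapped. At the edge nearest the 3′ end, chr10:63840000, it was 0.17, 0.13 and 0.08 in growing against 0.23 and 0.17 in RIS cells. The groups were apart there by less than 0.01, as they were, in either direction, at 67.9% of the edges of chromosome 10. Both of these edges lie inside the gene. At the next edge beyond the 3′ end, chr10:63880000, the difference was 0.10 with groups apart. At the next edge before the 5′ end, chr10:63640000, it was -0.06 with overlapping groups. With a 200 kb window it was -0.13 there, with groups apart. Minima that pass as borders were found in all 5 libraries at 3 edges near the gene. The edge at chr10:63480000, inside CABCOCO1, had scores of -0.03, -0.07 and -0.12 in growing against -0.14 and -0.16 in RIS cells. The edge at chr10:63800000, inside ARID5B and beside the bin with the alternative promoter, had 0.06, 0.02 and -0.05 in growing against 0.10 and 0.04 in RIS cells, with overlapping groups. The edge at chr10:64000000, inside RTKN2, had -0.38, -0.40 and -0.40 in growing against -0.25 and -0.33 in RIS cells. With this window more contacts crossed the edge after the gene in RIS and fewer the edge before it. Neither difference was confined to its edge. The edges at chr10:63960000 and chr10:64040000 differed by 0.09 and 0.10, and those at chr10:63440000 and chr10:63520000 by -0.08 each, with groups apart. The prominence of the minimum after the gene was 0.84, 0.84 and 0.80 in growing against 0.76 and 0.88 in RIS cells. For the minimum before the gene it was 0.24, 0.25 and 0.26 in growing against 0.39 and 0.36 in RIS cells. The groups overlapped at the edge after the gene with a 200 kb window (difference 0.08) and at the edge before it with a 1000 kb window (difference -0.02).

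**Figure D5:**
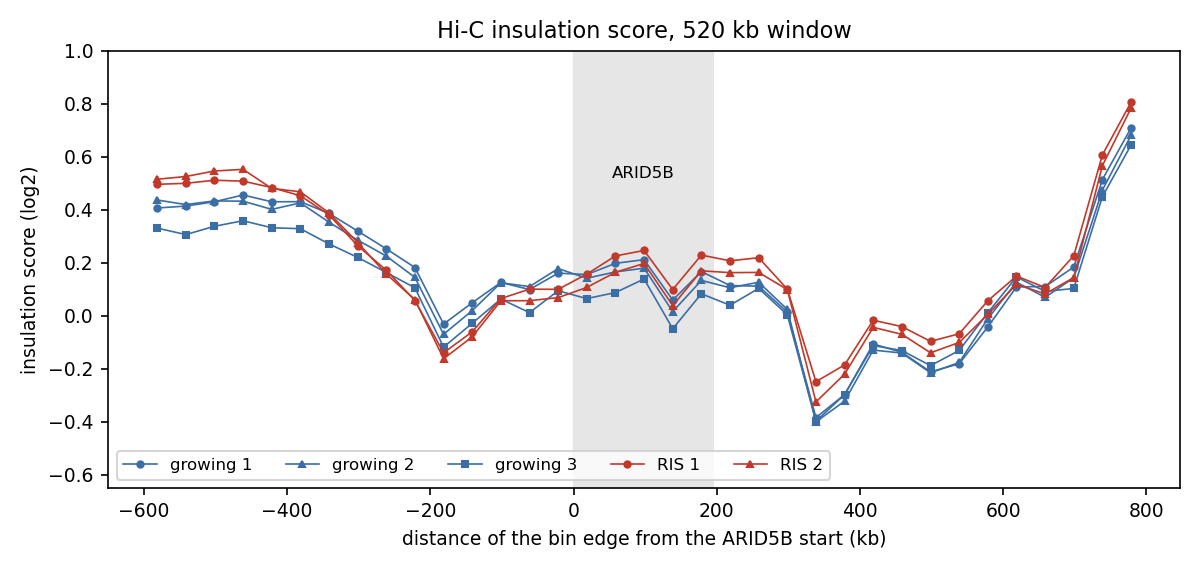
Insulation score (log2, 520 kb window) at the edges of 40 kb bins around ARID5B for each Hi-C library, against distance from the start of the gene in kb, with the gene body shaded. RIS libraries lie below growing libraries at the minimum before the gene and above them at the minimum after it. The edges beside each of these minima are apart in the same direction.

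The compartment score is the first principal component of the contact pattern and is positive in gene-dense, active chromatin. In 120 kb bins the 3 bins over ARID5B scored 1.30, 1.34 and 1.07 in growing against 1.22, 1.20 and 0.99 in RIS cells on average. These falls were smaller than 0.21, the SD of the change over chromosome 10, and the first of them had overlapping groups. Before the gene the score moved both ways. The bin starting at 63120001 went from 0.20 to 0.44 and the bin at 63360001 from 0.74 to 0.56, with groups apart in both, and the bin between them had overlapping groups. After the gene, the bin at 64080001 rose from 0.55 to 0.93 and the bin at 64440001 from 0.48 to 1.05. The bin at 64680001 went from -0.46 to 0.38, so that its sign turned. Over the window, 11 of 22 bins were higher and 5 lower with groups apart, where 35.1% of the bins of chromosome 10 were higher and 26.4% lower in this way. Higher bins lay on both sides of the gene, and the bins at 64440001 and 64680001 lie beyond the 480 kb after it. The part of the compartment score in the higher downstream contact of ARID5B was not tested. Before balancing, none of the 6 Hi-C bins of the gene had groups apart in coverage. Of the 12 bins of the upstream flank, 6 had fewer recovered contacts in both RIS than in all growing libraries, relative to the median bin, with differences of the flank from -0.11 to 0.03, where 18.0% of all Hi-C bins had groups apart in this direction. The part of this in the lower upstream contact was not tested.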

How the data were processed

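Hi-C and cHi-C libraries were checked by the authors with FastQC, aligned to hg19 with HiC-Pro, freed of artefacts and duplicates, counted per library and balanced by ICE, and the deposited signal is the balanced contact of each pair of bins (40 kb for Hi-C, 10 kb for cHi-C). Each pair was listed in both orientations, and 1 was kept. Dividing out 1 factor per bin returned whole contacts (tolerance 0.05 for up to 10 contacts, 0.5% above) for at least 99.98% of values. Recovered depth was 109967509 to 180775315 contacts for Hi-C and 69114491 to 171729924 for cHi-C.

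Pairs with a mean scaled value of at least 5 (Hi-C up to 2 Mb apart) were normalized by loess on abundance (span 0.3, 4 iterations) and fitted with limma 3.58.1 in R 4.3.3 on log2(value + 0.5), with Benjamini-Hochberg adjustment at 5% over all pairs. Other values were computed with Python 3.11.15, numpy 2.4.6, scipy 1.17.1 and pandas 2.3.3 as log2 of the mean O/E. On simulated data with known changes, limma on balanced values called none of the changed pairs and made calls among the unchanged ones. Limma-trend called few or none of the changed pairs, and voom called a part of them, with few calls among the unchanged. The contacts simulated for voom held no differences between libraries in the coverage of single bins. Its few calls there therefore do not show how many of its calls in the data are false. Borders were minima of a 520 kb insulation score with a prominence of at least 0.1.

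The members, lists and tests were chosen with earlier results of these data known. Named in the text are the protein-coding genes of the window that have a symbol, the candidate enhancers that the study pairs with ARID5B, and the 3 genes most like ARID5B. The 10 lowest and 10 highest bins of the promoter profile in each assay are given mostly as ranges. The patch around the bin 70 kb upstream, the limma-trend fit, voom with libraries left out or with the block, and the removal of weakly captured bins were chosen after seeing the data. Alternatives covered the test, loess, pseudocount, filter, replicate block, expectation, balancing, flank, window, duplicates and each library left out.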

Additional observations from a re-analysis of the deposited data

How the results depend on the processing

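In cHi-C the lower contact of the ARID5B promoter with its upstream bins kept its direction under all 8 alternatives run. It was -0.18 with the expectation from the captured region of ARID5B alone and -0.32 to -0.24 with each library left out. Contact of the captured part of the gene with itself was 0.07, the opposite direction, with that expectation, -0.05 with recovered contacts before balancing, -0.11 without weakly captured bins and -0.16 to -0.12 with each library left out. The upstream flank with itself was -0.05 with that expectation, -0.15 before balancing and -0.23 to -0.17 with each library left out. In Hi-C the gene body with itself was 0.14 before balancing, 0.12 between the libraries with many duplicates and 0.07 to 0.10 with each library left out. The gene body with its upstream flank turned to 0.01 with a flank of 960 kb and was -0.10 to -0.07 with each library left out. With its downstream flank it was 0.20 with 960 kb and 0.09 to 0.16 with each library left out. Before balancing, the groups overlapped for the captured part of the gene with itself and, in Hi-C, for the gene body with itself and with both flanks. Insulation at the 5′ end was -0.02 with a 200 kb window, -0.02 without growing replicate 3 and -0.01 without RIS replicate 1 (range -0.02 to 0.04), and at the 3′ end it was 0.04 to 0.10.

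Counts of called pairs depended on the fit. In the captured locus limma called 1 pair, and 3 without loess (0.265% of all captured pairs), 0 with a pseudocount of 2, 0 with the replicate block, 0 with limma-trend and 0 with any library left out. Voom called 372, 354 with the replicate block and 129, 123, 318 and 365 without growing replicate 1, growing replicate 2, RIS replicate 1 and RIS replicate 2. Of all captured pairs these 5 fits called 10.8, 3.39, 3.22, 8.98 and 12.5%. For the promoter bin voom called 14, 15 with the replicate block and, in the same order, 3, 5, 20 and 11 with a library left out. In the Hi-C window voom called 22, 24 with the replicate block, and 8, 12 and 19 without growing replicates 1, 2 and 3 and 2 without either RIS replicate. Of all Hi-C pairs these fits called 1.15% with the block, 0.541, 0.834 and 1.08% without growing replicates and 0.124 and 0.0861% without RIS replicates 1 and 2. For the Hi-C promoter bin voom called 2, of which 1 was higher, and 2 with the replicate block, of which 0 were higher. With a library left out it called 0 to 2, all of them lower, and 0 without either RIS replicate. The higher call inside the gene thus recurred in no other voom fit. With limma these 2 Hi-C counts were 0 under all alternatives. Without loess the median Hi-C difference of all pairs moved to -0.12 and that of the window to -0.04. The cause of these changes was not tested. Whether replicate numbers pair the samples was not settled. Deviations of same-numbered cHi-C libraries correlated by 0.006, but this was taken over single pairs of bins, where counting error can hide a shared batch. Why calls were lost under the block was not tested.

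With so few libraries a group, groups were apart in a large share of all pairs, and 10 kb pairs beyond 300 kb or 40 kb pairs beyond 400 kb rest on few contacts in RIS libraries. Depth was lower in RIS than in growing cells, so RIS values carry more counting error.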
